A study of Homo sapiens with 28 samples.

Results

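BCR, ABL1, PML and RARA are the 4 genes joined by the defining translocations of 2 of the 3 cell lines studied, and they were followed here through peaks of N6-methyladenosine (m6A) on the RNA of the chromatin fraction (caRNA). The 4 genes were taken from GENCODE release 44 on hg38, out of 20033 protein-coding genes. A peak was assigned to a gene when its summit lay between 1000 bases upstream of the gene start and the gene end, with the strands kept apart. In this way 325 of 496678 listed peaks were assigned, 310 on the strand of the gene (sense peaks) and 15 on the other strand (antisense peaks). By merging peaks that overlap on a strand, these became 41 sense regions and 5 antisense regions.

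BCR encodes a cytoplasmic signalling protein and ABL1 a non-receptor tyrosine kinase. Fused as BCR-ABL1, they give a kinase that is always active and drives chronic myelogenous leukaemia. PML is the scaffold protein of nuclear bodies and RARA is the retinoic acid receptor alpha, a nuclear receptor that switches genes on when it binds its ligand. Fused as PML-RARA, they hold myeloid cells at the promyelocyte stage, and retinoic acid or arsenic releases that block. The m6A mark is placed on nascent RNA by a methyltransferase complex, and on caRNA it has been tied to chromatin state and transcription.

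Methylated RNA was pulled down with an m6A antibody from rRNA-depleted, fragmented caRNA and sequenced (MeRIP-seq), and 1 peak list was deposited for each of 14 immunoprecipitated (IP) libraries. HepG2, a hepatoma line with neither fusion, was represented by unmodified (WT) cells (n = 2). K562, the chronic myelogenous leukaemia line that carries BCR-ABL1, was represented by WT cells (n = 2), by Control cells (n = 2) and by RBFOX2 KD cells (n = 2). NB4, the acute promyelocytic leukaemia line that carries PML-RARA, was represented by Control (n = 3) and RBFOX2 KD cells (n = 3). Control and KD cells carried a lentiviral short hairpin RNA and were selected with puromycin. The hairpin was non-targeting in Control cells and directed against RBFOX2, an RNA-binding protein, in KD cells. Each line is a single line, so a difference between lines is not a difference between cells with and without a fusion, and although the study's methods call its MeRIP-seq replicates biological, the labels do not tie each library to a culture, so the p-values measure only the spread between these libraries.

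The lists held 22700 to 44088 peaks. Read depth, recovered from the values of each list, was 10.8 to 25.6 M reads (mega-reads) in the 11 libraries where the recovery gave whole reads. Median peak width was 303 to 343 bases in K562, 243 to 258 bases in NB4 and 319.5 and 327 bases in HepG2. Of 10 marker genes chosen for each line, 9 erythroid markers had a sense peak in every K562 library (all but ALAS2), 7 promyelocytic markers in every NB4 library (not ELANE, CTSG and LYZ) and 5 hepatic markers in every HepG2 library (not ALB, APOA1, APOB, APOA2 and SERPINA1). In the other lines the same lists reached at most 3 of 10.

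Peaks in these genes are represented by sequence close to the summit, read from hg38 on the strand of the peak. They were chosen because they are the regions listed in all 14 libraries, the 3 regions listed in every library of the fusion line and in no other library, or regions listed in 1 or 2 of the lines. Capitals mark GGACT, a common form of the m6A consensus, where it occurs within 75 bases of the summit of the strongest peak, and otherwise GGAC or GAC.
BCR exon 1 (chr22:23181938-23181967, plus strand): cggctataccccGGACTgcagctccaatga
BCR intron 4, FBXW4P1 (chr22:23262893-23262922, plus strand): gaggcgggagcgaGGACacgcccaagagag
BCR promoter, antisense (chr22:23180162-23180191, minus strand): ctccggccaggaGGACTtctccggccagtc
ABL1 most upstream exon (chr9:130713710-130713739, plus strand): aaaaagcGGACTtaaaagttgctggcaatg
ABL1 exon 11 (chr9:130885583-130885612, plus strand): agatctgcccggcGACagcaggcagtggtc
PML intron 7, at 41.2 kb (chr15:74035805-74035834, plus strand): ccccctggGGACTctgtcagaggctccatg
PML intron 7, at 46.4 kb (chr15:74041047-74041076, plus strand): gttctaaggccgaGGACattgccccgagct
PML exon 9 (chr15:74044539-74044568, plus strand): agaacctggcccaGACctacctggcgagaa
RARA exon 2 (chr17:40331189-40331218, plus strand): ctgcctcccttctGACtgtggccgcttggc
RARA intron 2 (chr17:40342654-40342683, plus strand): gggcggcgcgcaGGACTtcccagctcggac
RARA exon 9 (chr17:40356410-40356439, plus strand): tGGACTgcctgctcccacagcctgggctga

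GGACT lay within 75 bases of 124720 of the 496678 summits (25.1%), on the strand of the peak, and between 22.04% and 29.1% of summits in each library. Among sense summits it was present at 27 of 124 in BCR (21.8%), 16 of 82 in ABL1 (19.5%), 22 of 59 in PML (37.3%) and 22 of 45 in RARA (48.9%). Summits of different libraries fall in the same few regions, so these shares describe the regions and were not tested.

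**Figure D1:**
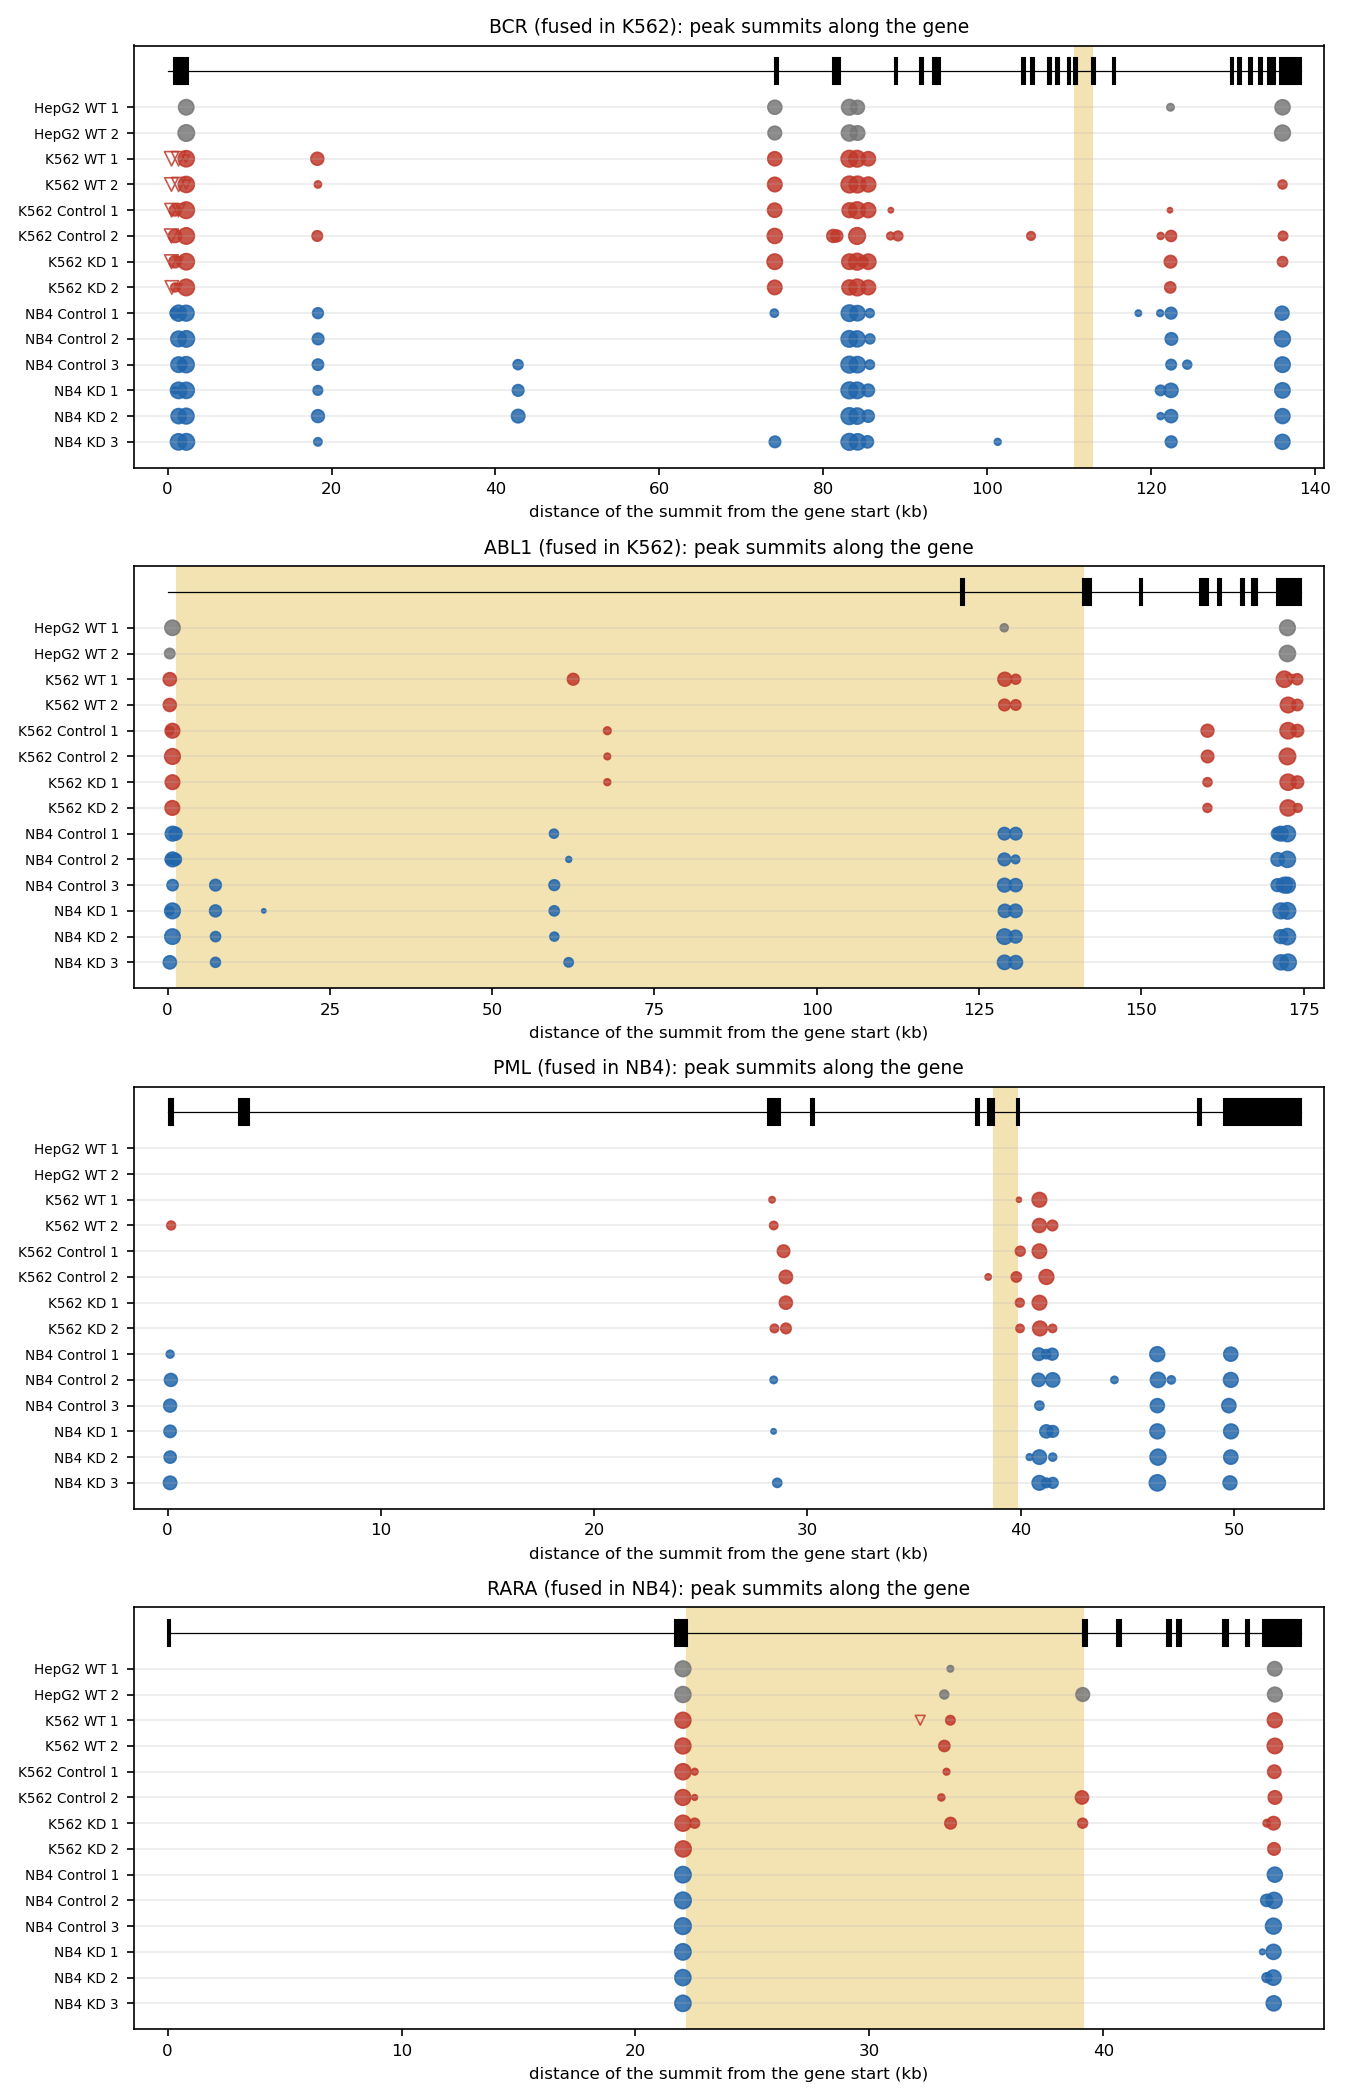
Summits of peaks along BCR, ABL1, PML and RARA, as the distance from the gene start in kb (horizontal) in each of the 14 IP libraries (vertical). Filled circles are sense peaks and open triangles antisense peaks, marker size grows with the percentile of the peak in its list, black blocks are exons of the canonical transcript, and the shaded stretch is where the fusion junction lies. Antisense triangles at the start of BCR appear in K562 alone, and peaks at 46.4 and 49.9 kb of PML in NB4 alone.

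BCR (ENSG00000186716.21, chr22:23179704-23318037, plus strand) carried its strongest signal at exon 1 and within intron 4, in every library. Exon 1, a single long coding exon of the canonical transcript ENST00000305877.13, held a region (chr22:23180526-23182465) whose strongest peak stood at a mean percentile of 94.9 ± 1.93 in K562 (SD, n = 6), 92.9 ± 3.39 in NB4 (SD, n = 6) and 89.8 ± 9.47 in HepG2 (SD, n = 2). The percentile is the rank of the −log10 q-value within the list of a library, with 100 for the strongest peak. Exon 1 is part of both BCR and the fusion transcript.

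The intron 4 region (chr22:23262613-23265756) ranged from percentile 98.5 to 99.5 in K562, with a median of 99.3. It ranged from 96.4 to 99.9 in NB4, with a median of 98.9, and stood at 86.5 and 90.8 in HepG2. It covers FBXW4P1, a processed pseudogene on the same strand (chr22:23262767-23265005), and is therefore not a peak of BCR exons. The fold of its strongest summit over the local background was 31.0 ± 12.2 in K562 (SD, n = 6), 23.2 ± 2.77 in NB4 (SD, n = 6) and 7.72 ± 2.23 in HepG2 (SD, n = 2). The K562 mean joins 15.3 and 15.7 in WT with 36.1 to 41.5 in Control and KD. NB4, at 20.5 to 27.5, lay between them. The strongest summit also differed, near 84.1 kb in K562 Control and KD and near 83.2 kb in K562 WT and NB4. Over 99.2% of its length the pseudogene aligned with a transcript of its parent gene FBXW4 at 92.1% identity, so reads of the pair could be exchanged where the aligner could not place them, and the values at this region are uncertain. It held the strongest sense peak of BCR in every library but HepG2 WT 2, and the mean percentile of that strongest peak differed between K562 and the other lines by 2.49 points (exact permutation over libraries, adjusted p = 0.284), where 22.6% of genes passed as higher and 6.95% as lower.

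Further regions of BCR differed between the lines in opposite directions along the gene. A region at 74.1 kb from the gene start (chr22:23253665-23254166, intron 1) was listed in 6 of 6 K562 libraries at percentiles of 69.5 to 84.2, in 2 of 2 HepG2 libraries and in 2 of 6 NB4 libraries, where it stood at 18.9 and 43.6. The 3' untranslated region (3' UTR) of exon 23 (chr22:23315446-23315894) showed the reverse. It was listed in 6 of 6 NB4 libraries at percentiles of 67.5 to 88.1 and in both HepG2 libraries at 80.0 and 88.1, but in 3 of 6 K562 libraries, at 23.7 to 33.3. Where it was listed, the 3 K562 percentiles lay below those of the other lines. How many regions share this pattern was not counted. A region in intron 16 (chr22:23301830-23302342) was listed in 4 of 6 K562, 6 of 6 NB4 and 1 of 2 HepG2 libraries, and a region at 18.3 kb (chr22:23197825-23198332, intron 1) in 3 of 6 K562, 6 of 6 NB4 and no HepG2 libraries. The remaining 10 sense regions of BCR were each listed in 4 libraries or fewer.

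RNA from the opposite strand of BCR, at the gene start and over exon 1, was marked in K562. K562 libraries listed 3 and 3 antisense peaks in WT, 2 and 1 in Control and 2 and 2 in KD, and each of the 8 NB4 and HepG2 libraries listed 0. Every K562 library thus stood above every other library, a pattern found in 6.89% of the 6472 genes with an antisense peak, and the difference of 2.17 peaks had the smallest p that 6 against 8 libraries allow (two-sided exact permutation test, p = 0.000333, Benjamini-Hochberg adjusted p = 0.00456). Over all these genes 13.2% passed in the same direction. Leaving out each library in turn left a difference of 2.00 to 2.40 peaks and an adjusted p of at most 0.0102, and without the KD libraries of both lines the difference was 2.25 with an adjusted p of 0.0809. With fewer libraries the smallest p the permutation allows is larger, so this last value cannot tell a lost difference from lost power. The antisense region at the start of the gene (chr22:23180048-23180445, upstream of the canonical transcript) was listed in 6 of 6 K562 libraries, at percentiles of 62.3 to 71.5 with a median of 64.3. Among 86481 merged regions in the whole series, 6.32% were listed in all 6 K562 libraries and in no other. Another antisense region lay over exon 1 (chr22:23180914-23181145) in 5 of 6 K562 libraries, and 1 more over exon 1 (chr22:23181774-23182059) in the 2 K562 WT libraries. The counts and the test above take all these regions together.

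The number of sense peaks in BCR did not separate K562 from the other lines, whereas the length under them was greater in K562 when the FBXW4P1 region was counted. K562 libraries listed 6 and 7 sense peaks in WT, 8 and 13 in Control and 9 and 7 in KD. NB4 libraries listed 13, 8 and 11 in Control and 11, 10 and 10 in KD, and HepG2 libraries 6 and 5. K562 lay between HepG2 and NB4, overlapping both, and differed from them together by -0.917 peaks (two-sided exact permutation test, p = 0.542, adjusted p = 0.715). Over all 12628 genes tested, 15% had more and 5.03% fewer sense peaks in K562 at an adjusted p under 0.05.

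Length under sense peaks in BCR was 4.21 to 7.21 kb in K562 (median 4.60), 3.93 to 4.68 kb in NB4 (median 4.14) and 2.78 and 2.90 kb in HepG2. The K562 mean of 5.04 ± 1.13 kb (SD, n = 6) exceeded the mean of the other lines, 3.84 ± 0.66 kb (SD, n = 8), by 1.20 kb (two-sided exact permutation test, p = 0.00699, adjusted p = 0.0217). Over all genes 34.6% passed in this direction, and the median difference was 0.12 kb, so many genes had more length under peaks in K562. Outside the FBXW4P1 region the difference was 0.394 kb and did not pass (two-sided exact permutation test, adjusted p = 0.249), with 2.23 to 4.09 kb in K562, 2.30 to 2.78 kb in NB4 and 1.87 and 2.02 kb in HepG2, which overlapped. K562 Control 2 was the highest library, and without it the difference was 0.765 kb with an adjusted p of 0.0902. Peak lists cannot tell more RNA of a gene from a larger methylated share of that RNA, and RNA level was not tested.

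ABL1 (ENSG00000097007.20, chr9:130713043-130887675, plus strand) had 2 regions listed in every library, one at each end. The last exon of the canonical transcript ENST00000318560.6, exon 11, which holds the long C-terminal coding part and the 3' UTR, was listed in all 14 libraries (chr9:130883908-130887309). Percentiles there were 84.3 to 95.6 in K562 (median 92.6), 87.6 to 96.0 in NB4 (median 92.4) and 86.6 and 92.5 in HepG2, so the lines overlapped. For the strongest sense peak anywhere in ABL1, the mean of K562 differed from that of the other lines by -0.16 points (exact permutation over libraries, adjusted p = 0.962). The covered length of the region was 3.02 ± 0.24 kb in K562 (SD, n = 6), 2.28 ± 0.14 kb in NB4 (SD, n = 6) and 2.51 ± 0.01 kb in HepG2 (SD, n = 2). At the other end, the most upstream exon of the gene lay under a region listed in all 14 libraries (chr9:130713036-130714511), at percentiles of 57.9 to 86.3 in K562 (median 74.1), 41.3 to 85.8 in NB4 (median 74.8) and 34.3 and 82.5 in HepG2.

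Between these ends NB4 listed intronic peaks that K562 mostly lacked. Regions at 128.9 kb (chr9:130841843-130842184) and 130.6 kb (chr9:130843516-130843829), both in intron 1, were listed in 6 of 6 NB4 libraries. The first stood above the upstream exon in NB4 Control 3 (64.8 against 41.3), NB4 KD 3 (70.4 against 59.5) and K562 WT 1 (66.4 against 59.8). In K562 both were listed in the 2 WT libraries and in none of the Control and KD libraries. A region in intron 6 (chr9:130873107-130873330) showed the converse within K562, being listed in the 4 Control and KD libraries and in neither WT library. Control and KD cells differ from WT cells by the hairpin vector and its selection, and also in depth (12.6 to 19.5 against 24.9 and 25.6 M reads), and these cannot be told apart here.

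NB4, not K562, had the most sense peaks in ABL1. NB4 libraries listed 8, 8 and 8 in Control and 9, 7 and 7 in KD, K562 libraries 6 and 5 in WT, 6 and 4 in Control and 5 and 4 in KD, and HepG2 libraries 3 and 2. Several of these peaks could share 1 region. Counted as separate regions, every NB4 library still listed at least as many as any K562 or HepG2 library. K562 WT 1 was level with NB4 Control 1 and NB4 Control 2. The number of separate regions was not tested. The exon 11 region held 2 to 3 peaks in NB4, 1 to 2 in K562 and 1 in HepG2. The upstream exon region held 1 to 3 peaks in NB4, 1 to 2 in K562 and 1 in HepG2. Every NB4 library stood above every other library, as in 6.49% of all genes, and the difference was 3.46 peaks (two-sided exact permutation test, p = 0.000666, adjusted p = 0.00713, with 14.2% of genes passing in this direction). It kept an adjusted p of at most 0.0215 when each library was left out in turn and was 3.67 with an adjusted p of 0.185 without the KD libraries. That smaller set has a larger smallest possible p, so the value cannot tell a lost difference from lost power. K562 against the other lines together gave -1.5 peaks (two-sided exact permutation test, p = 0.209, adjusted p = 0.39), which joins a difference of -2.83 from NB4 (adjusted p = 0.0110, with 30.5% of genes passing in either direction) and one of 2.5 from HepG2 (adjusted p = 0.119, at the smallest p this comparison allows, 0.0357).

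Length under sense peaks in ABL1 ordered the lines differently from the number of peaks. It was 4.14 to 5.44 kb in K562 (median 4.82), 3.62 to 4.62 kb in NB4 (median 3.88) and 3.83 and 4.03 kb in HepG2. The K562 mean was 0.789 kb above that of the other lines (two-sided exact permutation test, p = 0.00466, adjusted p = 0.0155), and leaving out each library in turn gave 0.662 to 0.921 kb with an adjusted p of at most 0.0406. Such a call was common, since 34.6% of 12628 genes passed in this direction, with a median difference of 0.12 kb over all genes. NB4 and HepG2 overlapped.

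**Figure D2:**
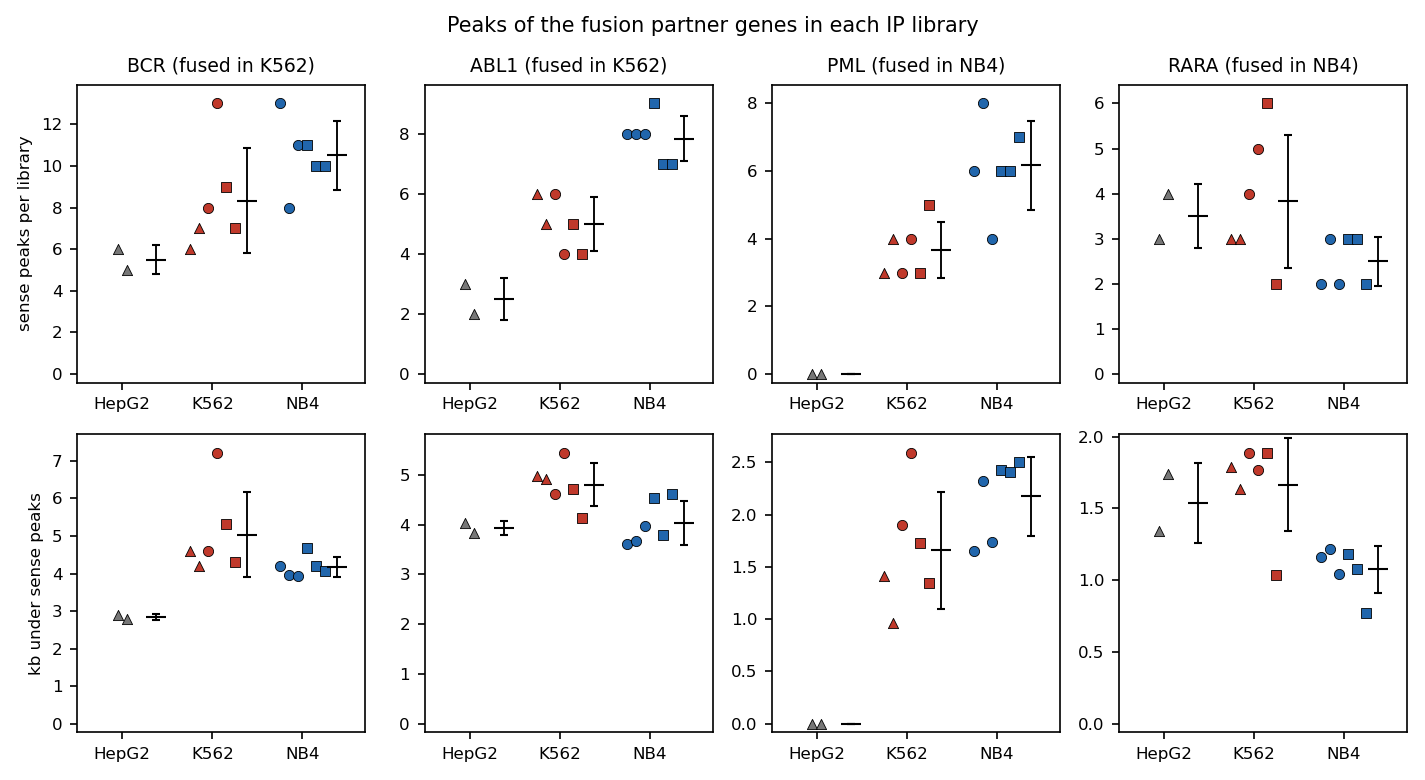
Number of sense peaks (top) and kb under sense peaks (bottom) in each IP library, by cell line. Triangles are WT, circles Control and squares RBFOX2 KD libraries, and the bar beside each line gives the mean and SD. By mean number NB4 stands highest in BCR, ABL1 and PML, while by mean length K562 stands highest in BCR, ABL1 and RARA.

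PML (ENSG00000140464.20, chr15:73994673-74047827, plus strand) carried no peak in either HepG2 library, and in K562 and NB4 it had both shared and unshared regions. NB4 libraries listed 6, 8 and 4 sense peaks in Control and 6, 6 and 7 in KD, and K562 libraries 3 and 4 in WT, 3 and 4 in Control and 3 and 5 in KD. NB4 was higher by 3.42 peaks than the other lines (two-sided exact permutation test, p = 0.00233, adjusted p = 0.0184, with 14.2% of genes passing in this direction), and higher than K562 alone by 2.5 (adjusted p = 0.0364), although NB4 Control 3 lay within the K562 range. Without NB4 Control 2 the difference was 3.05 peaks with an adjusted p of 0.0590, and without NB4 KD 3 it was 3.25 with an adjusted p of 0.0609, so the call rested on single libraries. Length under the peaks was 1.66 to 2.50 kb in NB4 and 0.963 to 2.59 kb in K562, and the difference of 0.932 kb did not pass in the permutation test (adjusted p = 0.0908), which 12.5% of genes passed in this direction. Without K562 Control 2, the K562 library with the greatest length, it was 1.12 kb with an adjusted p of 0.0357 in the permutation test.

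A pair of PML regions was listed in all 6 NB4 libraries and in no other library. The first lay in intron 7 of the canonical transcript ENST00000268058.8 (chr15:74040818-74041826), opposite a long non-coding RNA gene, ENSG00000287543, at percentiles of 68.3 to 92.3 with a median of 79.6. The other lay in the coding part of exon 9, the last exon (chr15:74044368-74044845), at percentiles of 66.2 to 76.4 with a median of 69.9. In the whole series 3.4% of merged regions were listed in all 6 NB4 libraries and in no other, and 2 of the 9 PML regions were. These regions and the antisense region of BCR were the 3 regions of the 4 genes held only by the line with the fusion. The same number was found with peaks at −log10 q of at least 5, with summits joined in place of peaks, and with lists cut to equal size.

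K562 and NB4 shared a PML region that HepG2 did not list. At 41.2 kb (chr15:74035402-74036291), in intron 7 of the canonical transcript and within an exon of 7 other PML transcripts, peaks stood at percentiles of 67.8 to 76.6 in K562 (median 74.3) and 25.5 to 74.0 in NB4 (median 64.4). The fold was 12.6 ± 2.6 in K562 (SD, n = 6) and 7.67 ± 2.18 in NB4 (SD, n = 6). Exon 3 (chr15:74022945-74024067) was listed in 6 of 6 K562 and 3 of 6 NB4 libraries, and exon 1 in the 5' UTR (chr15:73994729-73994929) in 1 of 6 K562 and 6 of 6 NB4 libraries. A region at 40.0 kb (chr15:74034350-74034734) was listed in 5 of 6 K562 libraries and not in NB4.

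RARA (ENSG00000131759.18, chr17:40309180-40357643, plus strand) had the same pair of regions in every library, at the start codon exon and in the 3' UTR. The region in exon 2 of ENST00000254066.10 (chr17:40330813-40331497) held the strongest RARA peak in all 14 libraries. Its percentile was 92.0 to 98.3 in NB4 (median 94.8), 87.7 to 92.0 in K562 (median 89.7) and 87.1 and 89.9 in HepG2. NB4 exceeded the other lines by 5.61 percentile points (two-sided exact permutation test, p = 0.000666, adjusted p = 0.00596, with 12.1% of 5082 genes passing in this direction), and K562 KD 2 alone of the other libraries reached the lowest NB4 value. Leaving out each library in turn gave 4.98 to 6.25 points and an adjusted p of at most 0.0131, and without the KD libraries of both lines the difference was 8.08 points with an adjusted p of 0.0741. Fewer libraries make the smallest possible p larger, so this value cannot tell a lost difference from lost power. When peaks were ranked by fold, the difference was 2.58 points with an adjusted p of 0.228, and the fold itself was 16.04 ± 4.04 in NB4 (SD, n = 6), 21.9 ± 5.99 in K562 (SD, n = 6) and 8.01 ± 1.52 in HepG2 (SD, n = 2).

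The 3' UTR region in exon 9 of RARA (chr17:40355878-40356616) stood at percentiles of 79.1 to 91.5 in NB4 (median 80.7), 52.5 to 83.4 in K562 (median 62.1) and 71.8 and 75.3 in HepG2. NB4 was higher on average here too, and only K562 WT 2 came within its range. Intron 2 of RARA showed the opposite. A region at 33.3 kb (chr17:40342173-40342782), where the lncRNA gene RARA-AS1 lies on the other strand, was listed in 5 of 6 K562 libraries and 2 of 2 HepG2 libraries, and in none of the 6 NB4 libraries. Its percentiles were low, 10.0 to 44.3 in K562 and 9.25 and 23.5 in HepG2.

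Fewer sense peaks were listed for RARA in NB4, with a difference of -1.25 that did not pass. NB4 libraries listed 2, 3 and 2 in Control and 3, 3 and 2 in KD, K562 libraries 3 and 3 in WT, 4 and 5 in Control and 6 and 2 in KD, and HepG2 libraries 3 and 4 (two-sided exact permutation test, p = 0.0619, adjusted p = 0.164, with 7.11% of genes passing as lower in NB4). Length under the peaks was 0.773 to 1.22 kb in NB4, 1.04 to 1.89 kb in K562 and 1.34 and 1.74 kb in HepG2, with a difference of -0.559 kb in NB4 (two-sided exact permutation test, p = 0.00333, adjusted p = 0.0168). K562 KD 2, at 1.04 kb, lay within the NB4 range. Without the KD libraries of both lines the difference was -0.552 kb with an adjusted p of 0.0785 in the permutation test, where fewer libraries make the smallest possible p larger. As many as 19.8% of genes passed as shorter in NB4, where peaks were narrower overall.

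**Figure D3:**
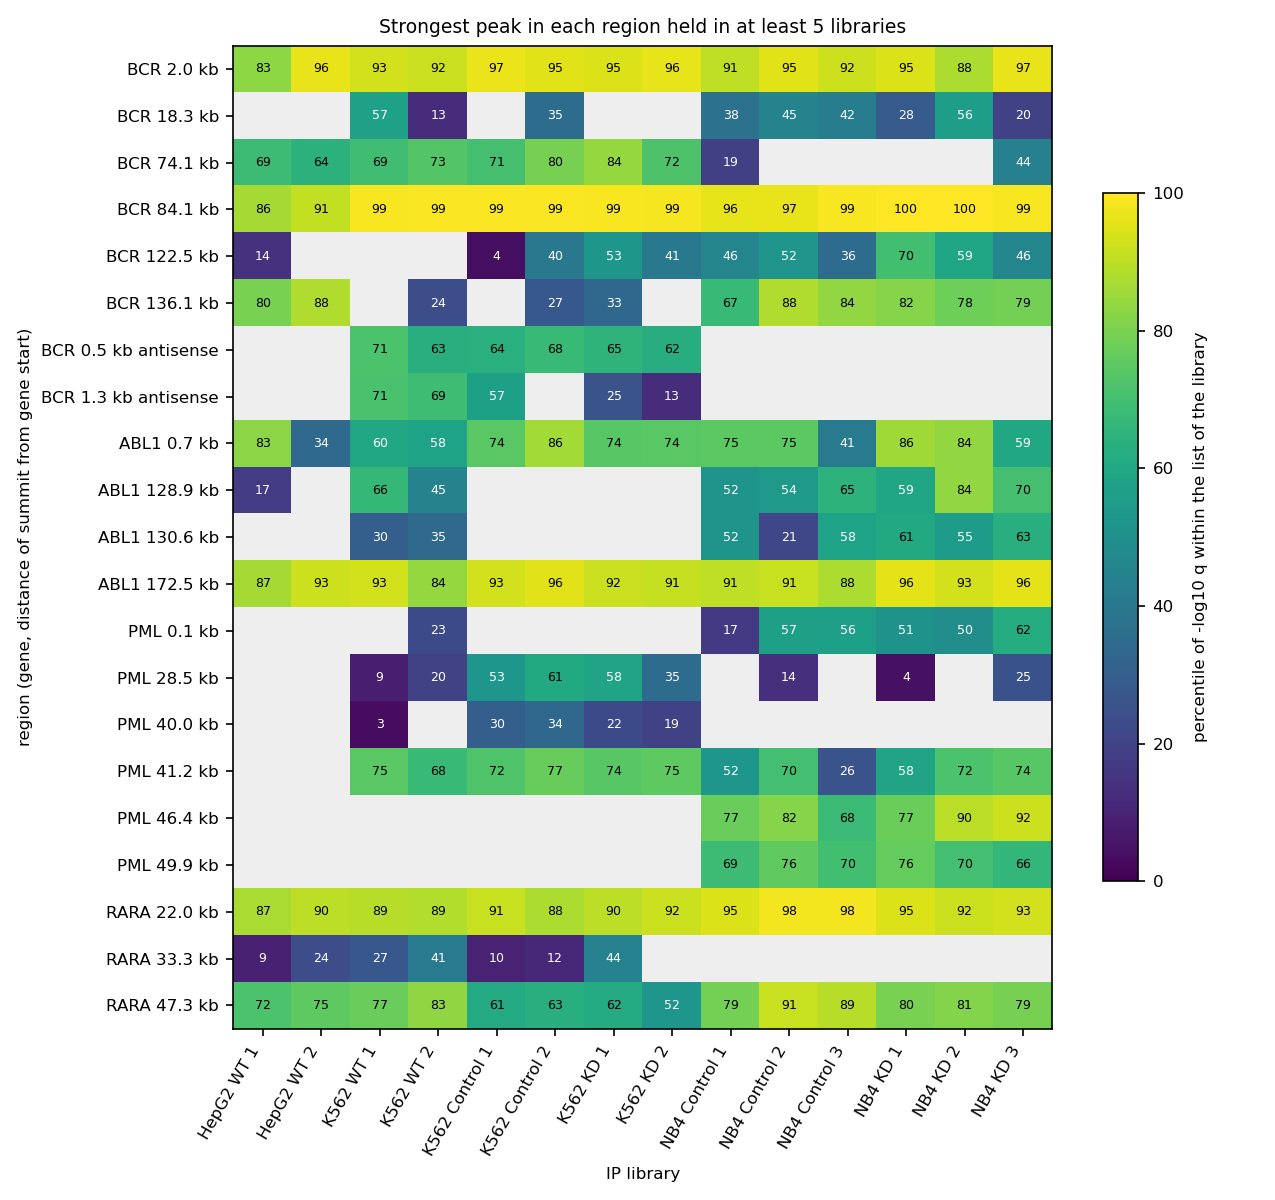
Percentile of the strongest peak in each region of the 4 genes held in at least 5 of the 14 libraries, by library (horizontal) and by gene and distance from the gene start (vertical). Numbers and colours give the percentile of −log10 q within the list, and grey cells have no peak. Rows at 84.1 kb of BCR, 172.5 kb of ABL1 and 22.03 kb of RARA are high in all libraries, and rows at 46.4 and 49.9 kb of PML are filled in NB4 alone.

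How the peaks lay about the fusion junctions was described by splitting each gene at the junction as it is known from textbooks for these lines. BCR is kept through exon 14 and ABL1 from exon 2 in BCR-ABL1, and PML is kept through exon 6 and RARA from exon 3 in PML-RARA. The stretch in which the junction falls is 2.13 kb in BCR, 140 kb in ABL1, 1.06 kb in PML and 16.9 kb in RARA. The lists show no junction reads, and peaks of the fused and the unfused copy cannot be told apart, so the values below are a description.

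In K562, both parts that BCR-ABL1 keeps had more length under sense peaks than in any library of the other lines. For BCR the kept 5' part held 4.04 to 6.58 kb in K562 (median 4.46), 2.99 to 3.72 kb in NB4 (median 3.25) and 2.30 and 2.42 kb in HepG2. Without the FBXW4P1 region the ranges were 2.05 to 3.46 kb in K562, 1.37 to 1.82 kb in NB4 and 1.42 and 1.5 kb in HepG2, and still did not overlap. For ABL1 the kept 3' part held 2.83 to 3.63 kb in K562 (median 3.15), 1.99 to 2.38 kb in NB4 (median 2.33) and 2.50 and 2.52 kb in HepG2. Among whole genes, 18.1% had every K562 library above every other library by length, and neither BCR nor ABL1 as a whole did. No share was worked out for parts of genes, so this one is not a like comparison.

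Lengths in the parts that BCR-ABL1 leaves out were lowest by mean in K562 for BCR and highest by mean in K562 for ABL1. The 3' part of BCR held 0 to 0.679 kb in K562 (median 0.251), 0.623 to 1.01 kb in NB4 (median 0.907) and 0.368 and 0.595 kb in HepG2, so that K562 was the lowest by median and overlapped both lines. The junction stretch of BCR held no peak in any library. The upstream part of ABL1 held 1.17 to 1.43 kb in K562, 0.664 to 1.33 kb in NB4 and 1.31 and 1.32 kb in HepG2. The ABL1 stretch in which the junction falls held 0 to 0.737 kb in K562 and 0.520 to 1.06 kb in NB4.

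In NB4 the greater length in PML lay in the part that PML-RARA leaves out, and RARA showed no such separation. The 3' part of PML, which the fusion leaves out, held 1.51 to 2.25 kb in NB4 (median 1.88), 0.656 to 1.10 kb in K562 (median 0.894) and none in HepG2, with no overlap. Among whole genes, 6.75% had every NB4 library above every other by length, and PML as a whole did not. This share too is for whole genes and not for parts. The kept 5' part of PML held 0.150 to 0.585 kb in NB4 and 0.307 to 1.36 kb in K562, which overlapped. The kept 3' part of RARA held 0.216 to 0.639 kb in NB4, 0.357 to 0.646 kb in K562 and 0.457 and 0.485 kb in HepG2, with each line overlapping the others. The 5' part of RARA, which is left out, held 0.557 to 0.672 kb in NB4, 0.541 to 0.578 kb in K562 and 0.503 and 0.543 kb in HepG2. There NB4 and K562 overlapped. Intron 2 of RARA, in which the junction falls, held 0 kb in each of the 6 NB4 libraries, against 0 to 0.950 kb in K562 (median 0.645) and 0.381 and 0.709 kb in HepG2, and K562 KD 2 was the library of K562 that held none.

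**Figure D4:**
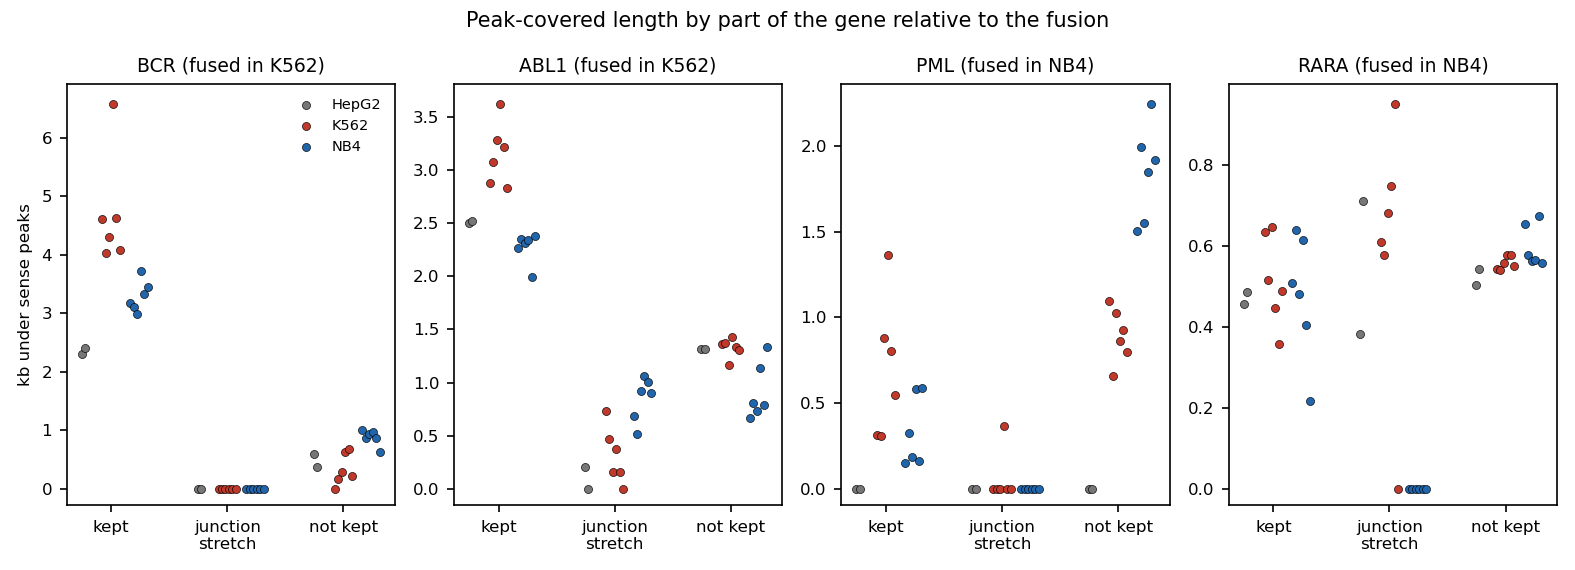
Length under sense peaks in kb (vertical) for the part of each gene that the fusion keeps, the stretch in which the junction falls and the part left out (horizontal), with 1 point per IP library coloured by line. K562 points stand above all others in the kept parts of BCR and ABL1, and NB4 points stand above all others in the part of PML that is left out.

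Depletion of RBFOX2, the comparison the study was built on, left no detected difference in the number of sense peaks of the 4 genes. KD minus Control, averaged over K562 and NB4, was -1.42 peaks in BCR, -0.417 in ABL1, 0.417 in PML and -0.083 in RARA (stratified two-sided exact permutation test, p = 0.483, 0.617, 0.667 and 1, each with an adjusted p of 1). In BCR 4 of 5 KD libraries had fewer peaks than the mean of their Control, with a difference of -2.5 in K562 and -0.333 in NB4. In ABL1 the differences were -0.5 and -0.333, in PML 0.5 and 0.333, and in RARA -0.5 and 0.333. The percent of all 11603 genes called at an adjusted p under 0.05 was 0, and 1.3% had an unadjusted p under 0.05, with 0.0167 as the smallest p the design allows. With so high a smallest p, an adjusted p under 0.05 needs a large share of all genes at it. The adjusted values therefore cannot show that a difference is absent. The antisense region at the BCR start was listed in both Control and both KD libraries of K562, and the PML regions at 46.4 and 49.9 kb were listed in 3 of 3 Control and 3 of 3 KD libraries. At the intron 7 region of PML the percentiles were 77.1, 81.7 and 68.3 in NB4 Control and 77.5, 89.6 and 92.3 in NB4 KD, which overlapped. Percentiles were not tested for KD. At ABL1 exon 11 they were 87.6 to 91.5 in NB4 Control and 93.2 to 96.0 in NB4 KD. In K562 the order was reversed, with 93.3 and 95.6 in Control and 92.0 and 91.1 in KD. At RARA exon 2 they were 94.9 to 98.3 in NB4 Control and 92.0 to 94.7 in NB4 KD. Length under sense peaks in PML was 1.66 to 2.32 kb in NB4 Control and 2.41 to 2.50 kb in NB4 KD. These ranges did not overlap, and how many regions or genes share such a pattern was not counted. RNA level was not measured by the lists, and the extent of the depletion was not analysed here.

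Genes that work with these fusions were counted against all genes tested, of which 15% passed as higher and 5.03% as lower in K562, and 14.2% as higher and 7.11% as lower in NB4. Of 24 tested genes of BCR-ABL1 signalling, 4 had more and 2 fewer sense peaks in K562 than in the other lines, a count close to those shares. STAT5B, a transcription factor downstream of the kinase, had 9 ± 2 peaks in K562 (SD, n = 6) and 5.63 ± 1.19 in the other lines (SD, n = 8), with an adjusted p of 0.0104 in the permutation test. STAT5A had 1.92 more peaks in K562 and the kinase gene AKT1 2.58 more, whereas RIN1, which encodes an ABL1-binding regulator of RAS signalling, gave a difference of -1.42. In NB4, 8 of the 24 had more peaks and 2 fewer, with GRB2, the adaptor that binds BCR-ABL1, at 2.67 ± 1.03 against 0.125 ± 0.35 (adjusted p = 0.00713 in the permutation test). The median difference over the list was -0.292 in K562 and 0.583 in NB4, against 0.042 and 0 over all genes.

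Among 19 tested genes of PML nuclear bodies, 7 had more and none fewer sense peaks in NB4, and 2 had more and 1 fewer in K562, against 14.2% higher and 7.11% lower in NB4 and 15% and 5.03% in K562 over all genes. SP110, a nuclear body protein, had 7.33 ± 3.33 peaks in NB4 (SD, n = 6) and 0.5 ± 0.76 in the other lines (SD, n = 8), with an adjusted p of 0.00403 in the permutation test. SP100, a core component beside PML, had 14.5 ± 3.83 against 7.25 ± 3.69 (adjusted p = 0.0463 in the permutation test). HIPK2, a kinase found in the bodies, gave a difference of 6 peaks in NB4 and of -6.83 in K562, in comparisons that share libraries.

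Of 18 tested genes of the retinoic acid receptor pathway, 6 had more and 2 fewer sense peaks in NB4, against 14.2% higher and 7.11% lower over all genes. RXRA, the partner with which RARA binds DNA, had 8.17 ± 1.47 peaks in NB4 (SD, n = 6) and 1.63 ± 0.52 in the other lines (SD, n = 8), and ZBTB16, itself a fusion partner of RARA in rarer cases of the disease, had 7.17 ± 2.04 against none. DHRS3, a retinal reductase induced by retinoic acid, had 2 ± 1.10 against 6.13 ± 1.13. These 3 genes had an adjusted p of 0.00403 in the permutation test. In K562, 2 genes of this list were higher and 2 lower, against 15% and 5.03% over all genes.

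Of 21 tested partner genes of other leukaemia fusions, 4 had more and 2 fewer sense peaks in NB4, and 3 more and 1 fewer in K562. These counts are close to the shares over all genes, 14.2% higher and 7.11% lower in NB4 and 15% and 5.03% in K562. RUNX1, a master regulator of blood formation, had 20.3 ± 4.18 peaks in NB4 (SD, n = 6) and 7 ± 3.82 in the other lines (SD, n = 8), with an adjusted p of 0.00403 in the permutation test. MECOM had 3.33 ± 0.52 peaks in K562 and none elsewhere, and MLLT3 had none in K562 and 3.25 ± 1.67 elsewhere. None of the genes of the 4 lists passed for RBFOX2 KD against Control, a test in which 0% of all genes passed.

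Other genes whose length under sense peaks followed that of the members over the 14 libraries were named as a description, from 8764 genes with a sense peak in at least 7 libraries. The 3 closest to BCR were POLE, TACC3 and PDSS1 (Pearson's r = 0.976, 0.966 and 0.963), to ABL1 ZNF432, FBXW7 and BCL2L2 (r = 0.949, 0.945 and 0.939), to PML EHMT1, ATP9B and BCORL1 (r = 0.972, 0.950 and 0.938), and to RARA DAG1, POLR2L and BCL9 (r = 0.911, 0.910 and 0.909). Points are libraries of 3 lines and share the difference in peak width between the lines. Of the 8 nearest protein-coding neighbours, 5 had no sense peak in any library, namely RAB36, IGLL1, QRFP, GOLGA6A and GJD3. EXOSC2, which lies 5.76 kb before ABL1 and encodes an RNA exosome subunit, had 4.33 ± 0.82 sense peaks in NB4 (SD, n = 6), 2.83 ± 0.75 in K562 (SD, n = 6) and 2.5 ± 0.71 in HepG2 (SD, n = 2). CDC6, a replication licensing gene 4.52 kb before RARA, had 1.83 ± 0.75 in K562, 1 ± 0.89 in NB4 and 0.5 ± 0.71 in HepG2, and STOML1, next to the start of PML on the minus strand, had 0.833 ± 0.75 in K562 and none in the other lines.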

How the data were processed

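Reads of the 14 IP libraries were processed by the authors, who per the study's methods and processing notes trimmed with Trimmomatic 0.39, aligned to hg38 with HISAT2 2.1.0 and GENCODE release 29, split alignments by strand with SAMtools 1.9 and called peaks per library with MACS2 (no model, 150-base extension, up to 5 duplicates, genome size 1.3e8, q under 0.01). Each deposited list gives the authors' score, −log10 p-value and −log10 q-value and the fold of the summit over its local background, and none of these is a read count. Use of the input libraries as background is not given in the sources used here, and the 14 inputs are not analysed here. A fold moves with depth, so peaks were ranked within lists by −log10 q-value.

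From the deposited values the pileup and local mean at each summit were solved, and depth followed from the lowest local mean. Pileups came out whole (within 0.05) at 100% of summits in 11 libraries and at 9.28% to 10.3% in HepG2 WT 1 and 2 and NB4 Control 3, whose depth is approximate. Annotation was GENCODE release 44 on hg38, with 0 of 496678 peaks past a chromosome end.

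Lines were compared by exact permutation of libraries (6 against 8, two-sided) and KD with Control by exact permutation within lines (120 arrangements), in every protein-coding gene with a peak, with Benjamini-Hochberg adjustment over all of them. The test was checked on simulated data. The members, gene lists and tests were chosen with earlier results of these data known. Named regions were up to 6 per gene in most libraries, then by percentile, plus those held only by the fusion line, and up to 4 genes per list by size of the difference, of which 1 gene is not reported here. Other regions named were chosen after their values were seen, as were the alternatives for kb, for BCR antisense and for ABL1 in NB4. Equal replicate numbers did not pair Control with KD libraries, since the correlations of deviations were -0.120 in K562 and -0.245 to -0.111 in NB4. Analyses used Python 3.11.15, numpy 2.4.6, pandas 2.3.3, scipy 1.17.1 and matplotlib 3.10.9.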

Additional observations from a re-analysis of the deposited data

Results flagged for a closer look

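In BCR, the percentile of the strongest sense peak of K562 KD 2 was 98.5, the lowest of the 6 K562 libraries and far from the next value of 99.2 relative to their whole range. ABL1 had 1 antisense peak in K562 WT 1 and none in the other K562 libraries, and RARA likewise had 1 antisense peak in K562 WT 1 and none in the others. A single peak in 1 library always meets this criterion, so the antisense cases say only that the peak was listed once. Of 19 groups of libraries examined chance flags about 1 in 20, a rate that does not hold for such counts. The BCR value is that of the region over the pseudogene FBXW4P1. No difference between K562 and NB4 in the effect of RBFOX2 KD on the number of sense peaks was found in the 4 genes by exact permutation (p from 0.583 to 1).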

How the results depend on the processing

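The measure and the line compared turned the direction of some differences. In kb, the K562 difference became 1.20 in BCR and 0.789 in ABL1, turning from fewer to more, that of NB4 in PML was 0.932 (permutation, adjusted p = 0.0908) and that in RARA -0.559, now past the threshold (-0.552 without the KD libraries, permutation, adjusted p = 0.0785). Outside the FBXW4P1 region, an alternative chosen after seeing the data, that in BCR was 0.394 (permutation, adjusted p = 0.249). Against HepG2 alone the K562 difference was 2.83 peaks in BCR and 2.5 in ABL1, and that of NB4 in PML was 6.17 (permutation, adjusted p = 0.113). The PML value was at the smallest p this permutation allows, 0.0357, and 0% of 11198 genes passed, so it could not pass. Against NB4 alone ABL1 gave -2.83 in K562. Without the KD libraries the NB4 difference in PML was 3.67 peaks (permutation, adjusted p = 0.327), the percentile differences were 8.08 in RARA (adjusted p = 0.0741) and 1.86 in ABL1, and by fold that in RARA was 2.58. Leaving out the KD libraries makes the smallest possible p larger, so a higher adjusted p in that setting cannot by itself show a lost difference. KD minus Control turned to 0.583 in BCR and -0.25 in PML with equal lists, and in PML to -0.083 kb and -0.038 per 10000 peaks. By length in kb, the difference turned to 0.319 in the part of ABL1 left out, to -0.195 in the kept part of PML and to -0.0261 in that of RARA. Causes of these changes were not tested.

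With each library left out, the K562 differences ranged from -1.85 to -0.381 peaks in BCR and from -2.14 to -1.14 in ABL1, and the NB4 differences from 3.02 to 3.85 in PML and from -1.5 to -0.929 in RARA. Percentile differences ranged from 1.03 to 2.94 in BCR, from -0.959 to 1.29 in ABL1 (above 0 without K562 WT 2 or any 1 of the 3 NB4 KD libraries) and from 4.98 to 6.25 in RARA. KD minus Control ranged from -2.67 to -0.167 in BCR, from -0.917 to 0.083 in ABL1, from -0.083 to 0.917 in PML and from -1.08 to 0.917 in RARA.

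With the replicate block, KD minus Control gave -1.42, -0.417, 0.417 and -0.083 peaks in BCR, ABL1, PML and RARA (exact sign-flip permutation, p = 0.625, 0.5, 0.75 and 1), and neither this nor a block with the K562 numbers crossed, chosen after seeing the data, called any gene (0 adjusted and 0 unadjusted, with 0.0625 as the smallest p, against 0 and 151 without the block). Shallow lists miss weak peaks, so a region absent from a list is not shown to be unmethylated.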
